A study of Mus musculus with 24 samples.

Results

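RNA of cultured aortic smooth muscle cells was compared between 3 libraries of cells loaded with cholesterol for 24 h and 3 libraries of control cells of the same time. These 6 libraries were taken by their column names, out of 14 RNA libraries and 24 samples in the series. All genes expressed in the table were described, 12648 of its 24453 genes after a filter on low values. The remaining 8 RNA libraries, namely 3 of the 0 h control and, at 48 h, 2 without and 3 with cholesterol, served for the estimate of spread and for the comparison with the later time.

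Vascular smooth muscle cells (VSMCs) had been isolated by the study from thoracic aortas of C57BL/6 mice of 8 to 10 weeks and grown in DMEM with 10% fetal bovine serum below passage 5. Cholesterol-loaded cells were given Chol:MβCD, that is cholesterol carried by methyl-β-cyclodextrin, at 20 ug/mL. The medium held 0.2% BSA. Control cells received 0.2% BSA alone. The control lacked the cyclodextrin carrier, which can itself move sterols in and out of membranes, so that effects of cholesterol and of the carrier cannot be told apart. The study calls its RNA replicates biological triplicates, and how cultures and mice relate to them was not given in the sources used here. Cells in culture without flow or neighbouring cell types are a model of the vessel wall in a limited sense.

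Cholesterol in the endoplasmic reticulum (ER) holds the precursor of the transcription factor SREBP2 in that membrane, and a fall of sterol lets it travel to the Golgi to be cleaved and to switch on the genes of sterol synthesis and uptake. Oxidised sterols activate the liver X receptors (LXRs), which switch on genes of sterol export. Stress of the ER or a lack of amino acids leads to phosphorylation of the initiation factor eIF2α and to translation of ATF4, a transcription factor of amino acid metabolism. In atherosclerotic vessels VSMCs take up lipid, lose contractile proteins and take on features of other cells.

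The deposited RPKM values are reads per kilobase of gene body, scaled to the reads of a library. The gene body here includes introns, so that a level is per base of the whole gene and cannot be read as a number of transcripts. Totals recovered from the 24 h libraries were 6759220 to 7590880 tags, where a tag is a read position counted once. Levels below are RPKM after scaling of the libraries by the median of ratios (factors of 1.02 to 1.06 at 24 h). Log2 differences are cholesterol minus control on log2(normalized RPKM + 1), which understates the change of low genes, and the ratio of group means is given beside many of them. A gene was called at a Benjamini-Hochberg adjusted p under 0.05 over all genes tested, from limma.

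Smooth muscle markers were present in all 6 libraries, with summed levels of 168.7 to 179.2 over 9 genes in control cells and of 139.4 to 147.0 in cholesterol-loaded cells. Among 10 macrophage markers, Tyrobp was at 0 in all 6 libraries, and Adgre1, Itgam, Ptprc and Spi1 had at most 4 tags in a library. Of 7 endothelial markers none was above a mean of 0.281, and Cd3e of lymphocytes and Sox10 of Schwann cells were at 0.

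Of the 12648 genes tested, 314 were called higher with cholesterol (2.48%) and 374 lower (2.96%). Differences were small. The median size among called genes was 0.28 on the log2 scale for those that rose and 0.27 for those that fell, against 0.05 over all genes tested. Only 19 genes, 4 of them higher and 15 lower, differed by at least 1 on this scale, and the ratio of means was at least 2-fold in 34 genes that rose and 50 that fell. All 3 cholesterol libraries lay above all 3 control libraries in 17.9% of genes tested and below them in 21.1%, and all 688 called genes were among these. A fit of the 6 libraries of 24 h alone called 975 genes higher (7.71%) and 1150 lower (9.09%). These included 310 of the 314 genes and 373 of the 374. Without 1 of the 6 libraries, 140 to 182 genes were called higher and 178 to 222 lower. Counts for most gene lists below are therefore given with the range of these 6 fits. They are to be read beside the shares of all genes, 2.48% and 2.96%, at which a short list may hold no call.

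**Figure D1:**
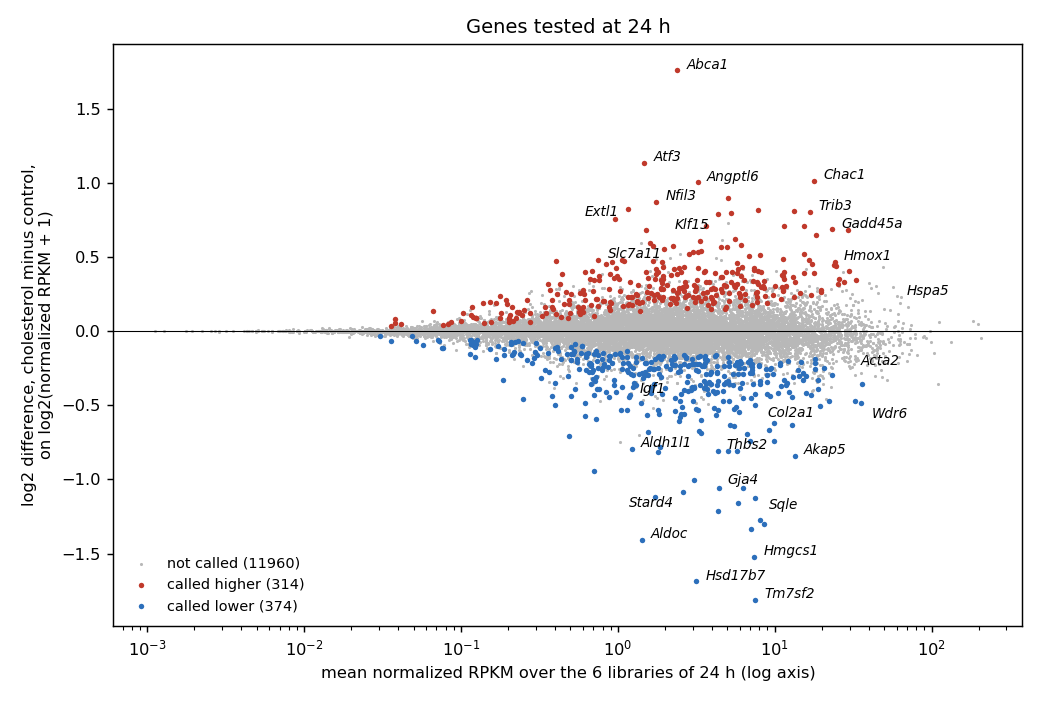
Each point is 1 of 12648 genes, with its mean normalized RPKM over the 6 libraries of 24 h (log axis) and its log2 difference (cholesterol minus control on log2(normalized RPKM + 1)). Red points are the 314 genes called higher and blue points the 374 called lower. Abca1 stands at the top, enzymes of sterol synthesis at the bottom, and abundant genes such as Hspa5 and Acta2 lie within the grey.

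Cholesterol synthesis carried the largest falls. Of its 22 enzymes, all of which were tested, 21 were called lower (19 to 20 without 1 library of 24 h), with a median log2 difference of -1.03 against -0.002 over all genes. Tm7sf2, a sterol reductase (chr19:6062821-6067850, mm10), had levels of 13.5, 11.52 and 11.7 in control cells and of 2.92, 2.88 and 2.51 in cholesterol-loaded cells. It was 4.42-fold lower (log2 difference -1.81, SE 0.11, adjusted p = 1.1e-06). Hsd17b7, a 3-ketosterol reductase, fell from 5.35, 5.73 and 4.99 to 0.918, 1.046 and 0.952, 5.51-fold. Hmgcs1, which makes HMG-CoA (chr13:119690351-119708260), had 11.495, 12.03 and 11.0 in control cells and 3.35, 3.49 and 3.18 with cholesterol (log2 difference -1.53, SE 0.08, adjusted p = 5.2e-07). Ggps1, which diverts the pathway to geranylgeranyl groups for proteins, was the 1 member not called.

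The promoter of Hmgcs1 is shown because it holds the core TCACNCCAC of the sterol regulatory element, which SREBPs bind. The window is chr13:119690198-119690238, on the + strand of GRCm38, with the match in capitals, 137 to 129 bases before the RefSeq start.
Hmgcs1: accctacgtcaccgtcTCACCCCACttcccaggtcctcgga
Promoters of 250 bases before the start were taken from RefSeq (GRCm38.p6), matched by symbol, for 9337 of the genes tested (73.8%). The core stood on either strand in 6 of 267 promoters of genes that were lower (2.25%), in none of 230 of genes that were higher and in 1.03% of all. Of 17 promoters of synthesis enzymes only that of Hmgcs1 held these exact letters. The CCAAT box, which binds NF-Y, stood in 14 of these 17 (82.4%), in 44.2% of promoters of genes that were lower, 32.2% of those higher and 36.1% of all. A match is a run of letters and not a proven site.

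Beyond the enzymes, genes of sterol handling moved both ways. Among 20 genes of sterol uptake and SREBP feedback 7 fell and 3 rose (4 and 2 without 1 library). Stard4, a carrier of cholesterol between membranes, fell from 3.77, 4.40 and 3.55 to 1.10, 1.54 and 1.30 (log2 difference -1.09, SE 0.08, adjusted p = 6.7e-06). Srebf2, which encodes SREBP2, was 1.58-fold lower, at 5.41, 5.50 and 5.15 against 3.18, 3.61 and 3.37. Aldoc, a brain-type aldolase, was also lower, at 2.17, 2.68 and 2.73 in control cells and 0.557, 0.340 and 0.109 with cholesterol (log2 difference -1.41, SE 0.11, adjusted p = 1.2e-05). The control and cholesterol libraries of these 3 genes stood apart.

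Of 15 LXR targets tested, 5 rose (4 to 5 without 1 library) and 1 fell. Their median log2 difference was 0.07, with 9 differences above 0 and 6 below. Abca1, the pump that exports cholesterol (chr4:53030789-53159895), was at 0.540, 0.565 and 0.549 in control cells and at 4.34, 4.22 and 4.18 with cholesterol. It was 7.70-fold higher, the largest rise on the log2 scale (log2 difference 1.76, SE 0.11, adjusted p = 1.7e-06). Mylip, the ligase that degrades the LDL receptor, rose from 0.368, 0.503 and 0.525 to 1.504, 1.46 and 1.44 (log2 difference 0.75, SE 0.06, adjusted p = 1.7e-05). Srebf1, which encodes SREBP1, was 1.84-fold higher, at 9.39, 9.57 and 9.27 against 16.6, 17.99 and 17.2. Both genes for SREBPs therefore changed, in opposite directions. Lpcat3, an acyltransferase of phospholipids, rose 1.33-fold, from 2.09, 2.12 and 2.16 to 2.83, 2.83 and 2.80. Scd1, the stearoyl-CoA desaturase and a target of both LXR and SREBP, fell from 21.2, 22.4 and 21.0 to 16.1, 16.5 and 15.9 (log2 difference -0.39, SE 0.07, adjusted p = 0.0054).

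The window of the Abca1 promoter is shown because it holds the DR4 element of LXR, a direct repeat with a spacer, at chr4:53159931-53159978 on the - strand, 67 to 52 bases before the start. Capitals mark the match.
Abca1: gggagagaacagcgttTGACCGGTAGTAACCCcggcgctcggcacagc
The DR4 element was found in 2 of 230 promoters of genes that were higher (0.870%), in 1 of 267 of those lower and in 0.407% of all.

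Genes of fatty acid synthesis and desaturation fell, 6 of 22 (4 without 1 library), and none was called higher. Elovl6, the elongase of C16 fatty acids, was 2.03-fold lower, from 1.53, 1.56 and 1.496 to 0.759, 0.751 and 0.746 (log2 difference -0.53, SE 0.04, adjusted p = 8.3e-06). Acly, which makes cytosolic acetyl-CoA, fell 1.52-fold, from 7.07, 6.98 and 6.50 to 4.41, 4.59 and 4.54. Among 46 genes of sphingolipids and phospholipids, 3 rose and 3 fell (2 and 1 to 2 without 1 library), where 2.48% and 2.96% of all genes did. Pcyt2, the rate-limiting enzyme of phosphatidylethanolamine synthesis, fell from 13.2, 12.9 and 11.6 to 6.85, 7.495 and 6.97 (log2 difference -0.74, SE 0.07, adjusted p = 3.5e-05). Lpin3, a phosphatidate phosphatase, rose from 2.62, 2.38 and 2.70 to 4.17, 4.25 and 4.11 (log2 difference 0.54, SE 0.06, adjusted p = 1.8e-04). Acot2, a mitochondrial thioesterase, rose 1.88-fold, from 2.49, 2.29 and 2.77 to 4.62, 4.86 and 4.76. Its near copy Acot1 may share its reads.

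Genes of the ATF4 branch of the stress response rose. Of 30 effectors of ATF4, 15 were called higher (11 to 12 without 1 library) and none lower, and the median log2 difference was 0.29. Of 23 sensors and transcription factors of the unfolded protein response 6 were higher (5 without 1 library) and none lower, namely Atf3, Ddit3, Cebpg, Nfil3, Ppp1r15a and Trib3. Atf3, a stress-induced transcription factor (chr1:191170297-191183333), was at 0.576, 0.512 and 0.562 in control cells and at 2.33, 2.49 and 2.37 with cholesterol. It was 4.36-fold higher (log2 difference 1.13, SE 0.07, adjusted p = 1.2e-06). Chac1, which degrades glutathione, rose from 10.7, 11.6 and 12.2 to 22.98, 26.2 and 23.5 (log2 difference 1.01, SE 0.07, adjusted p = 3.3e-06). Trib3, a pseudokinase that inhibits ATF4, was at 11.8, 11.1 and 12.9 against 20.6, 22.6 and 21.5. Ddit3, the transcription factor CHOP, was 1.69-fold higher, at 11.55, 11.99 and 10.9 against 18.9, 19.4 and 19.7. Ppp1r15a, the subunit GADD34 that directs dephosphorylation of eIF2α, was 1.63-fold higher, from 21.8, 22.3 and 22.5 to 33.8, 38.3 and 36.4. Atf4 itself was not called, at 55.8, 58.6 and 60.3 in control cells and 60.0, 66.4 and 63.4 with cholesterol, groups that overlapped only between 60.3 and 60.0 (adjusted p = 0.77, and 0.17 in the 24 h libraries alone). Its protein is known to be set by translation, which was not measured here.

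Windows of promoters with the core TGATGNAA of the amino acid response element, bound by ATF4 with C/EBP partners, are shown for genes that rose. Capitals mark the match, on either strand, and each window is written along its gene.
Atf3: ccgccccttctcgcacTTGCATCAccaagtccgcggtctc
Chac1: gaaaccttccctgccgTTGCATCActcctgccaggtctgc
Slc7a11: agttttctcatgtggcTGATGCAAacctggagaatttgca
Slc7a11: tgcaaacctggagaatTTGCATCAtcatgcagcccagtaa
Herpud1: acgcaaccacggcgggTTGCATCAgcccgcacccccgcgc
They lie at chr1:191183420-191183459, chr2:119351033-119351072, chr3:50443656-50443695, chr3:50443637-50443676 and chr8:94386301-94386340 in GRCm38, with Atf3 and Slc7a11 on the - strand. The core stood in 5 of 13 promoters of ATF4 effectors that rose (38.5%). It stood in 11 of 230 promoters of all genes that rose (4.78%), in 8 of 267 of those that fell (3.00%) and in 1.85% of all. Among genes that rose outside the lists of sterols, ER stress and amino acids it stood in 4 of 197 (2.03%), near the share of all.

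Genes of amino acid transport and synthesis were also called higher. The lists of ER stress, ATF4 and amino acids share members, so that a gene may count in more than 1 of them. Of 38 transporters and enzymes of amino acid synthesis 16 were called higher (10 to 12 without 1 library) and 1 lower. Slc6a9, a glycine transporter, rose from 2.45, 2.45 and 2.40 to 4.16, 4.35 and 4.19 (log2 difference 0.61, SE 0.06, adjusted p = 3.5e-05). Slc7a11, the cystine transporter, was 2.25-fold higher, at 0.514, 0.434 and 0.443 against 1.06, 0.983 and 1.08. Bcat1, the cytosolic branched-chain transaminase, rose from 2.35, 2.21 and 2.25 to 3.68, 3.70 and 3.85 (log2 difference 0.54, SE 0.05, adjusted p = 2.5e-05). Psph, the last enzyme of serine synthesis, was 1.52-fold higher, and Slc38a7, a lysosomal glutamine transporter, 1.45-fold. Among 9 genes with the symbol Slc7, the light chains of amino acid exchangers and related carriers, Slc7a11, Slc7a5 and Slc7a1 were called higher, 33.3% against 2.48% of all genes. Slc7a5 and Slc7a1 lost their calls without any 1 library of 24 h (adjusted p up to 0.14 and 0.13).

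Aminoacyl-tRNA synthetases, which charge tRNAs, had 7 of 23 called higher (2 to 3 without 1 library, 14 in the 24 h libraries alone), none lower, and 22 of 23 differences above 0. Wars rose from 4.21, 3.99 and 4.07 to 5.52, 5.84 and 5.71 (log2 difference 0.40, SE 0.05, adjusted p = 3.2e-04) and Lars from 3.36, 3.34 and 3.59 to 4.35, 4.50 and 4.30 (log2 difference 0.28, SE 0.04, adjusted p = 0.0030). Cars, Eprs, Iars, Vars and Yars were the others. One-carbon, nucleotide and polyamine synthesis had 5 of 39 higher (2 to 3 without 1 library) and 1 lower. The mitochondrial Aldh1l2 rose from 3.36, 3.57 and 3.53 to 4.91, 4.85 and 4.86 (log2 difference 0.39, SE 0.06, adjusted p = 0.0033). Its cytosolic counterpart Aldh1l1 fell from 1.91, 1.76 and 1.85 to 0.675, 0.650 and 0.579, 2.90-fold (log2 difference -0.80, SE 0.05, adjusted p = 2.7e-06). Both oxidise 10-formyltetrahydrofolate, and in these libraries they moved in opposite directions.

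Few genes of the other arms of the unfolded protein response were called at 24 h, and 2 that were not, Hspa5 and Xbp1, passed the test in the fit of the 24 h libraries alone. Of 27 ER chaperones and folding enzymes 2 were called higher, Dnajb9 and Txndc11, and both lost the call without any 1 library of 24 h (adjusted p up to 0.17 and 0.14). Hspa5, the chaperone BiP, was at 53.8, 56.4 and 56.4 in control cells and 62.7, 66.7 and 67.3 with cholesterol, groups that did not overlap, with an adjusted p of 0.41 (0.018 in the 24 h libraries alone). Xbp1 was at 13.2, 14.4 and 13.7 against 16.1, 16.6 and 15.2 (adjusted p = 0.14, and 0.026 in the 24 h libraries alone), and its splicing was not measured. Of 26 genes of ER-associated degradation only Herpud1, a scaffold of the retrotranslocation complex, was called, at 9.495, 9.57 and 9.74 against 12.4, 13.7 and 12.3 (log2 difference 0.38, SE 0.06, adjusted p = 0.0032). None of 57 genes of ER translocation and secretory transport was called by limma, with 5 higher and 0 lower at an unadjusted p under 0.05. Among these 57, the fit of the 24 h libraries alone called 2 higher and 2 lower, voom weights 1 and 0, and array weights 8 and 1. None of 33 heat shock genes was called either, with 2 higher and 2 lower at an unadjusted p under 0.05, 4 and 2 in the 24 h libraries alone, 0 and 0 with voom weights and 2 and 3 with array weights.

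**Figure D2:**
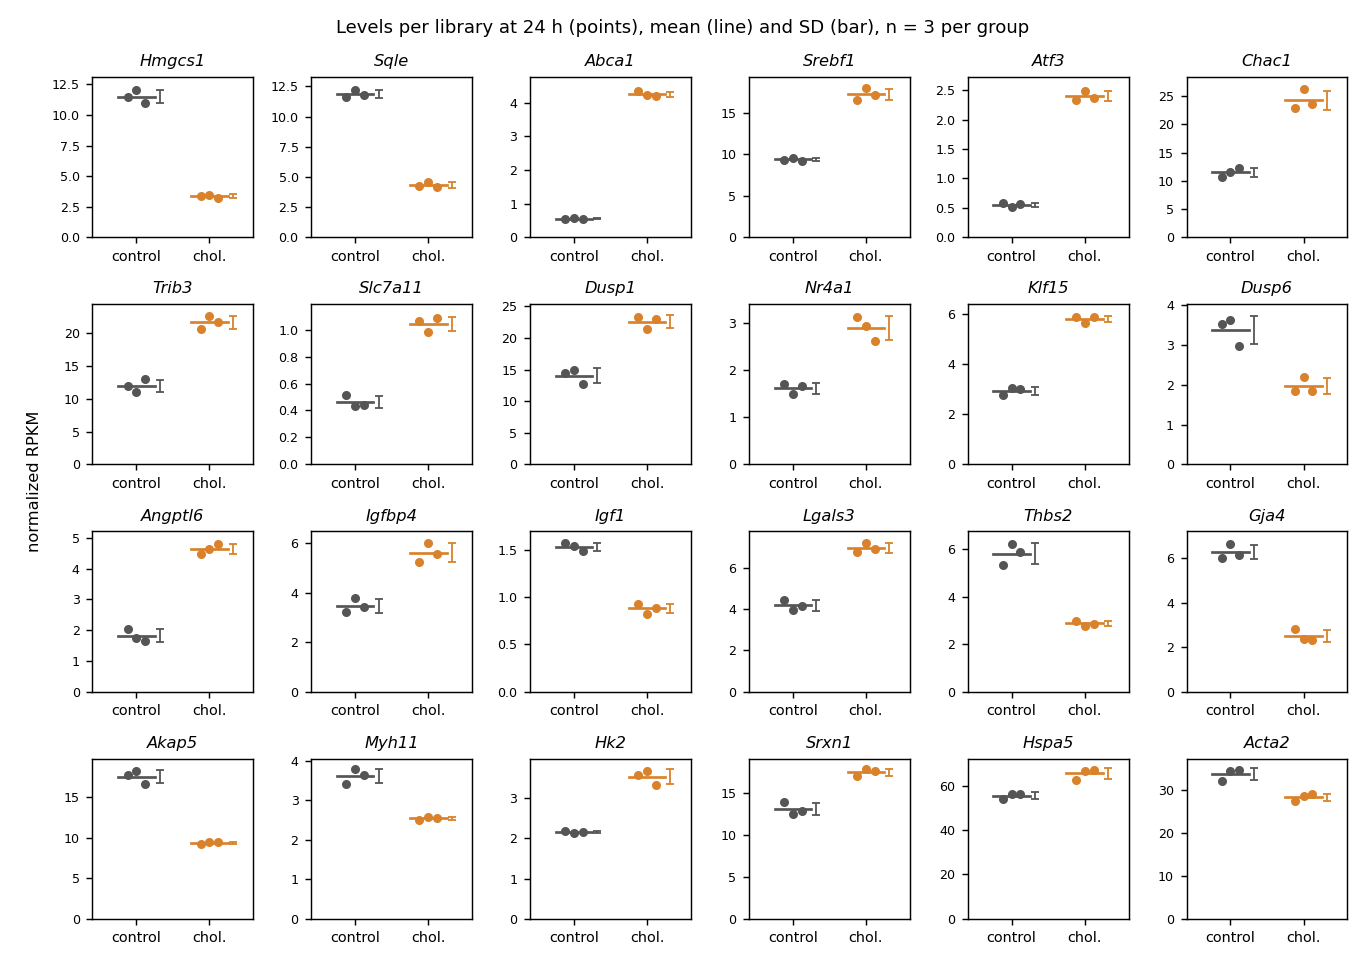
Normalized RPKM (vertical axes from 0) of 24 genes in each library of 24 h, as points, with the mean of 3 libraries as a line and the SD as a bar, for control (grey) and cholesterol-loaded cells (orange). Groups do not overlap in any panel, also not for Hspa5 and Acta2, which passed the test only in the fit of the 24 h libraries alone or with array weights (adjusted p = 0.41 and 0.48 in the fit of all libraries).

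Feedback inhibitors of MAP kinases changed. Of 19 dual-specificity phosphatases (symbol Dusp), which remove phosphates from MAP kinases and other proteins, 4 were called higher (21.1% against 2.48%) and 1 lower. Dusp1, an early-response phosphatase, rose from 14.4, 14.96 and 12.8 to 23.4, 21.4 and 22.9 (log2 difference 0.65, SE 0.08, adjusted p = 6.0e-04). Dusp8, a phosphatase of JNK and p38, was 1.94-fold higher, at 3.96, 3.52 and 3.22 against 6.81, 7.27 and 6.68. Dusp18 was 1.596-fold higher, and Dusp16 1.33-fold, and the call of Dusp16 was lost without control replicate 2 or cholesterol replicate 1 of 24 h (adjusted p up to 0.064). Dusp6, the phosphatase of ERK, went the other way, from 3.52, 3.61 and 2.96 to 1.84, 2.19 and 1.83 (log2 difference -0.56, SE 0.11, adjusted p = 0.011). Its call was lost without control replicate 2 or cholesterol replicate 1 or 3 of 24 h, with an adjusted p of up to 0.056. Spred1, an inhibitor of Ras signalling, also fell, 1.35-fold.

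The cAMP response element TGACGTCA, bound by CREB and ATF proteins, stood in the promoters of Dusp8 and Dusp1, and in that of Ppp1r15a, which are shown for that reason, with the match in capitals and each window along its gene, on the - strand.
Dusp8: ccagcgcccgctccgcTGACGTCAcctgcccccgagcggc
Dusp8: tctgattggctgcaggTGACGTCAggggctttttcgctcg
Dusp1: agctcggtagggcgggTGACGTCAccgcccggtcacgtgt
Ppp1r15a: gaccccgcctctccggTGACGTCAgcac
The windows are chr7:142095368-142095407, chr7:142095324-142095363, chr17:26508592-26508631 and chr7:45526269-45526296 in GRCm38. The element stood in 10 of 230 promoters of genes that rose (4.35%), in 3 of 267 of those that fell (1.12%) and in 2.78% of all.

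Among immediate-early genes, Nr4a1, an orphan nuclear receptor, rose from 1.71, 1.48 and 1.66 to 3.12, 2.93 and 2.62 (log2 difference 0.57, SE 0.06, adjusted p = 9.9e-05) and Myc from 9.91, 9.54 and 10.2 to 12.7, 13.5 and 12.4 (log2 difference 0.35, SE 0.06, adjusted p = 0.0064). Of 38 genes of this list 5 were called higher and 3 lower (4 to 5 and 1 to 2 without 1 library). Klf15, a Krüppel-like factor, was 1.97-fold higher, at 2.76, 3.03 and 3.03 against 5.88, 5.66 and 5.87 (log2 difference 0.79, SE 0.04, adjusted p = 7.6e-07). Srf, the serum response factor that drives contractile and early genes, fell from 14.97, 15.1 and 14.97 to 10.1, 11.8 and 10.55 (log2 difference -0.44, SE 0.06, adjusted p = 4.9e-04). Of 17 AP-1 and ATF genes outside the stress lists, Fosl2 alone was called, and its call was lost without any 1 library of 24 h (adjusted p up to 0.10).

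Contractile genes stood lower, and how many passed the test depended on the libraries that set the spread. Of 33 tested, 4 were called lower, Myh11, Lmod1, Mylk and Synpo2 (3 to 4 without 1 library), none higher, and 31 of 33 differences were below 0, with a median of -0.15. Myh11, the smooth muscle myosin heavy chain, fell from 3.42, 3.78 and 3.64 to 2.51, 2.57 and 2.55 (log2 difference -0.38, SE 0.06, adjusted p = 0.0017). Lmod1, a nucleator of actin filaments, was 1.35-fold lower, with an adjusted p of up to 0.062 without control replicate 2 or 3 or cholesterol replicate 2 of 24 h. Acta2, the smooth muscle actin, was at 32.003, 34.4 and 34.5 against 27.4, 28.4 and 29.0 and did not pass the test (adjusted p = 0.48). Tagln was at 46.1, 48.3 and 46.4 against 39.1, 42.6 and 42.3 (adjusted p = 0.68) and Cnn1 at 22.5, 23.8 and 22.0 against 17.4, 18.5 and 18.3 (adjusted p = 0.26). Each position was counted once in these files, and Acta2 and Tagln reached 1.49 and 1.42 tags per base of exon in a library, against a median of 0.130 over all genes. Fitted with the 24 h libraries alone, Acta2, Tagln and Cnn1 had adjusted p of 0.013, 0.040 and 0.0044, and 18 of the 33 genes were called lower, against 6 with voom weights and 15 with array weights.

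Acta1, the skeletal actin, was called lower, from 16.5, 14.7 and 16.5 to 8.96, 10.9 and 9.79 (log2 difference -0.63, SE 0.07, adjusted p = 2.2e-04), and may share reads with the near-identical Acta2. Tnnt2, cardiac troponin T, fell from 3.34, 3.44 and 3.61 to 2.21, 2.72 and 2.41 (log2 difference -0.37, SE 0.07, adjusted p = 0.0089). Fewer cells of a type and less RNA per cell cannot be told apart in bulk RNA. Rgs5, a brake on G protein signalling and a marker of pericytes, fell 1.65-fold, from 2.92, 3.37 and 3.36 to 2.03, 1.81 and 2.00. Akap5, an anchor of protein kinase A, was at 17.8, 18.2 and 16.7 in control cells and 9.23, 9.49 and 9.44 with cholesterol (log2 difference -0.84, SE 0.06, adjusted p = 2.7e-06). Gja4, the gap junction protein connexin 37, fell from 6.03, 6.65 and 6.16 to 2.81, 2.38 and 2.33, 2.51-fold (log2 difference -1.06, SE 0.07, adjusted p = 4.2e-06). Gja4 had the largest fall on the log2 scale, among genes with a mean level of at least 1, outside the lists of sterols and stress. Aldoc, described above with genes of sterol handling, fell further and is left aside here.

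Extracellular matrix genes mostly fell where they were called. Of 44 proteoglycans and matricellular proteins 4 fell (2 to 4 without 1 library, 15 in the 24 h libraries alone) and none rose, with a median of -0.11 and 36 differences below 0. Thbs2, a thrombospondin that restrains vessel growth, fell from 5.32, 6.20 and 5.88 to 2.98, 2.78 and 2.86, 2.02-fold (log2 difference -0.81, SE 0.05, adjusted p = 3.1e-06). Agrn, the heparan sulfate proteoglycan agrin, fell from 7.64, 8.64 and 7.71 to 6.28, 6.68 and 6.18 (log2 difference -0.28, SE 0.05, adjusted p = 0.0068). Of 41 collagens and their modifying enzymes 5 fell and 2 rose (1 to 3 and 0 to 1 without 1 library). Among 34 genes with the symbol Col, Col2a1, Col3a1, Col8a1 and Col4a3 were called lower (11.8% against 2.96%), Col15a1 higher, and 26 differences were below 0. Col4a3, a basement membrane chain, fell from 0.787, 0.805 and 0.820 to 0.558, 0.577 and 0.514 (log2 difference -0.22, SE 0.03, adjusted p = 5.0e-04). Col3a1, a fibrillar chain of the vessel wall, fell from 11.2, 12.96 and 12.5 to 8.89, 9.14 and 8.72 (log2 difference -0.41, SE 0.09, adjusted p = 0.017) and lost its call without any 1 library of 24 h but control 24 h replicate 1 (adjusted p up to 0.084). So did Col8a1 and Col15a1, without the same libraries (adjusted p up to 0.066 and 0.11), and Col2a1, without any 1 library of 24 h but cholesterol 24 h replicate 2 (adjusted p up to 0.12).

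Of 42 genes of glycosaminoglycan and heparan sulfate synthesis 1 was called higher and 2 lower (1 and 2 without 1 library), shares near those of all genes. Extl1, a glycosyltransferase of the exostosin family, rose 3.14-fold, from 0.611, 0.521 and 0.553 to 1.68, 1.85 and 1.75 (log2 difference 0.82, SE 0.05, adjusted p = 1.1e-06). Hs6st1, a sulfotransferase, fell from 4.85, 5.20 and 5.03 to 3.25, 3.10 and 3.28 (log2 difference -0.52, SE 0.06, adjusted p = 1.4e-04). Of 45 matrix proteases and inhibitors 2 rose and 1 fell (1 and 0 without 1 library), where 2.48% and 2.96% of all genes did. Adamtsl5, a secreted protein of the ADAMTS-like family, rose from 20.3, 20.0 and 19.6 to 26.0, 28.5 and 28.1 (log2 difference 0.44, SE 0.06, adjusted p = 0.0015). None of 18 genes of elastic fibres and lysyl oxidases was called by limma, with 2 higher and 3 lower at an unadjusted p under 0.05, 2 and 2 in the 24 h libraries alone, 0 and 2 with voom weights and 2 and 3 with array weights.

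Adhesion genes fell more than they rose. Of 36 genes of integrins and focal adhesion 6 were lower (3 without 1 library, 14 in the 24 h libraries alone) and 1 higher, and 30 of 36 differences were below 0. Itgb3, the integrin β3 chain, fell from 2.44, 2.45 and 2.49 to 1.97, 1.99 and 1.92 (log2 difference -0.22, SE 0.04, adjusted p = 0.0054). The LIM proteins Fhl2 and Fhl3, partners of integrins and of SRF, fell 1.36-fold and 1.48-fold. Itga7, the laminin-binding chain of muscle, rose 1.25-fold, from 4.02, 4.06 and 4.19 to 4.99, 5.46 and 4.89, and lost the call without control replicate 1 or 2 or cholesterol replicate 2 of 24 h (adjusted p up to 0.079). Of 23 cadherins and related adhesion genes 3 were lower (2 to 3 without 1 library) and none higher. Jam2, a junctional adhesion molecule, fell from 2.00, 2.08 and 2.02 to 1.61, 1.505 and 1.54 (log2 difference -0.25, SE 0.05, adjusted p = 0.0074).

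Tetraspanins, which organise membrane domains, were among the symbol groups picked by their calls. Of 14 tested, 4 were called lower (28.6% against 2.96%), none higher, and 11 differences were below 0. Tspan6 fell from 9.18, 9.03 and 8.96 to 7.30, 6.84 and 6.81 (log2 difference -0.33, SE 0.06, adjusted p = 0.0046). Tspan7 was at 0.426, 0.395 and 0.467 against 0.306, 0.280 and 0.292 (log2 difference -0.14, SE 0.02, adjusted p = 0.0028). Tspan2 lost its call without control replicate 2 of 24 h (adjusted p = 0.057), and Tspan13, at 0.123, 0.0726 and 0.0822 against 0.0492, 0.00480 and 0.0143, without control replicate 1 or cholesterol replicate 2 or 3 of 24 h (adjusted p up to 0.087). Of 19 genes of caveolae, rafts and membrane curvature, which are rich in cholesterol, only Ehd3 was called, lower (not without control replicate 2 or 3 or cholesterol replicate 2 of 24 h, adjusted p up to 0.052), and 16 of 19 differences were below 0.

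Semaphorins moved in both directions. Among 15 with the symbol Sema, 3 were called lower and 2 higher (20.0% against 2.96%, and 13.3% against 2.48%). Sema4f, a transmembrane semaphorin, was 2.00-fold higher, from 1.048, 1.03 and 1.12 to 2.11, 2.25 and 2.01 (log2 difference 0.60, SE 0.06, adjusted p = 6.4e-05). Sema7a, a membrane-anchored semaphorin, fell from 1.23, 1.41 and 1.36 to 0.959, 0.929 and 0.944 (log2 difference -0.26, SE 0.04, adjusted p = 0.0024). Sema3a and Sema4b lost their calls without any 1 library of 24 h (adjusted p up to 0.098 and 0.18), and Sema3c without control replicate 2 or 3 or cholesterol replicate 2 or 3 of 24 h (adjusted p up to 0.065). The wider list of semaphorins, slits and axon guidance had 5 of 36 lower and 2 higher (2 to 4 and 1 without 1 library).

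Other groups by symbol were aldehyde dehydrogenases, Kelch-like proteins and the Snhg host genes. Of 17 genes with the symbol Aldh, 4 were called lower (23.5%), Aldh1l1, Aldh1a7, Aldh3b1 and Aldh4a1, and 2 higher, Aldh1l2 and Aldh18a1. Aldh3b1 lost its call without any 1 library of 24 h (adjusted p up to 0.14), Aldh4a1 without any 1 library of 24 h but control 24 h replicate 3 (adjusted p up to 0.074) and Aldh18a1 without cholesterol replicate 2 of 24 h (adjusted p = 0.056). Aldh1a7, a near copy of Aldh1a1 with which it may share reads, fell from 2.87, 2.86 and 2.74 to 1.74, 1.82 and 1.85 (log2 difference -0.45, SE 0.05, adjusted p = 1.5e-04). Of 14 Snhg genes, non-coding hosts of small nucleolar RNAs, 4 were higher (28.6%) and 12 differences were above 0. Snhg12 rose from 15.4, 15.7 and 14.6 to 20.0, 20.9 and 19.9 (log2 difference 0.39, SE 0.06, adjusted p = 0.0027), while Snhg5 and Snhg6 lost their calls without any 1 library of 24 h (adjusted p up to 0.087 and 0.17) and Snhg17 without control replicate 2 or 3 or cholesterol replicate 1 or 3 of 24 h (adjusted p up to 0.078). Of 28 Klhl genes 3 were lower (10.7%), Klhl13, Klhl6 and Klhl7, with calls lost without any 1 library of 24 h for Klhl6 and Klhl7 (adjusted p up to 0.17 and 0.11) and without control replicate 1 or 2 or cholesterol replicate 1 or 2 of 24 h for Klhl13 (adjusted p up to 0.079). A group of 24 genes whose symbols share only the letter C, and which are unrelated, also met the rule with 3 lower. In total 342 symbol groups of 6 or more genes were counted, and 9 met the rule of 3 calls in 1 direction at 3 times the share of all genes. Groups with fewer calls were passed over by this rule, also where their genes moved together. All 14 protocadherins with the symbol Pcdhb had differences below 0, with a median of -0.34 (tetraspanins -0.12) and 2 called lower (14.3%). Of those with the symbols Pcdha (13), Pcdhga (12) and Pcdhgb (7) none had a difference above 0, and none was called.

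**Figure D3:**
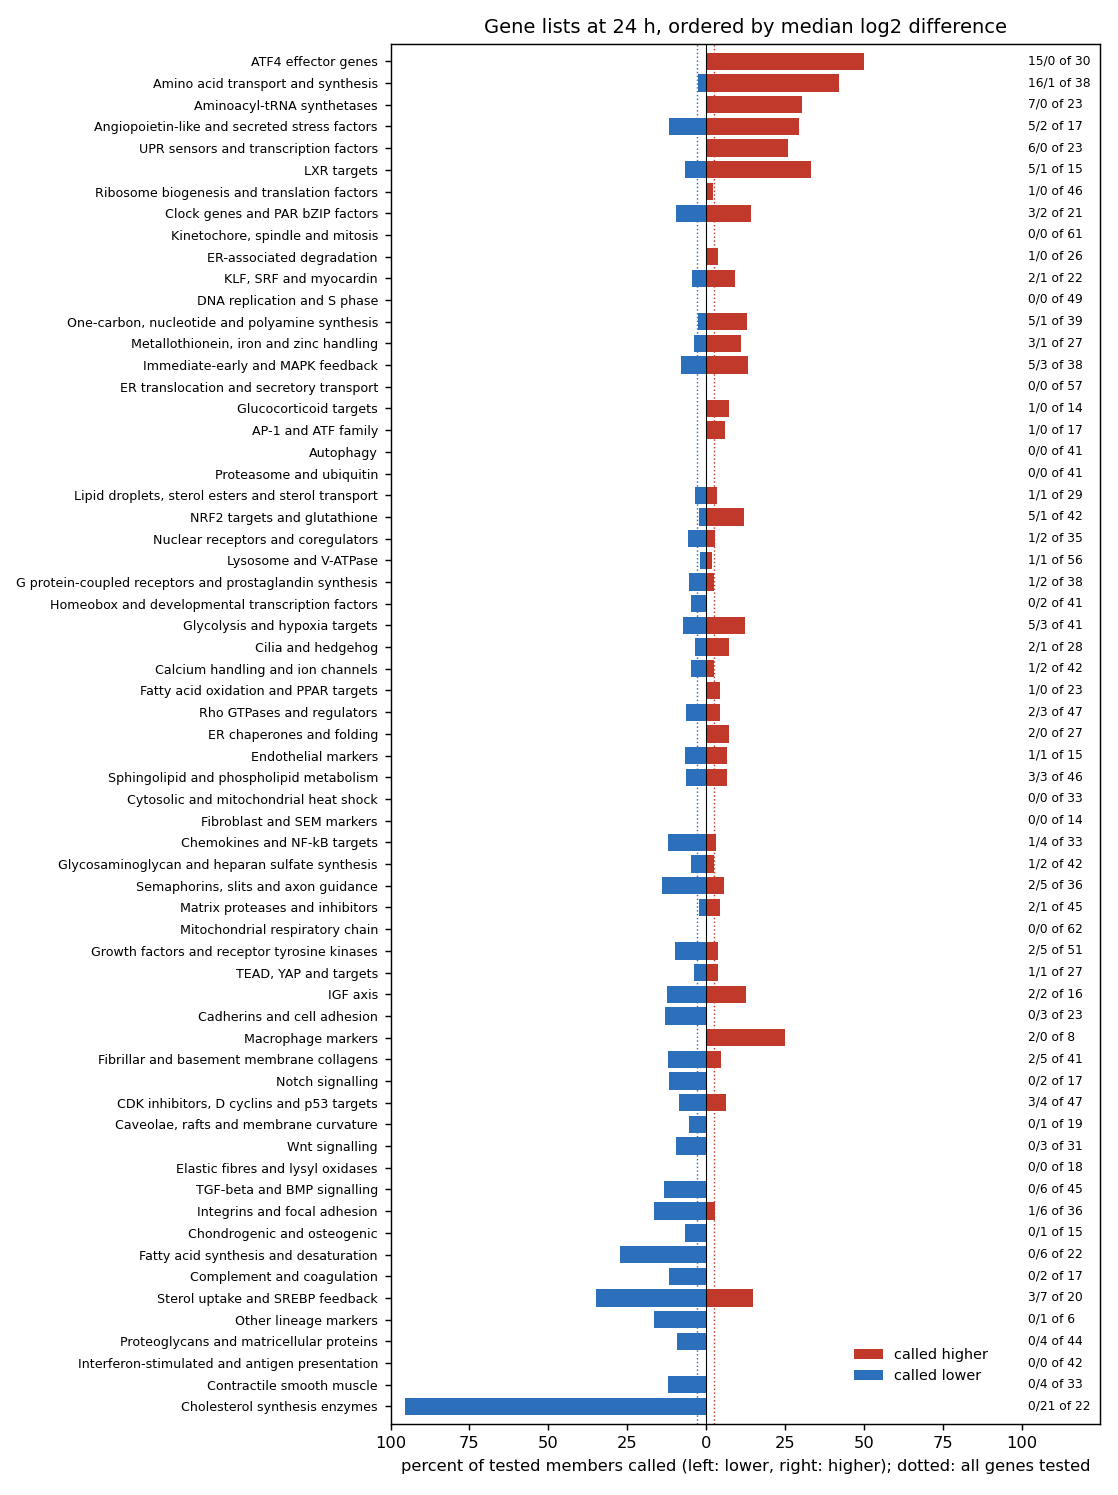
Percent of tested members called higher (red, right) or lower (blue, left) in each of 63 gene lists at 24 h, ordered by the median log2 difference, with counts of higher and lower calls at the right. Dotted lines are the shares of all genes, 2.48% and 2.96%. Cholesterol synthesis enzymes lie at the bottom with 21 of 22 lower and ATF4 effectors at the top with 15 of 30 higher.

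Secreted signals changed in several families. Of 17 angiopoietin-like and stress-related secreted factors, 5 were higher and 2 lower (3 and 1 to 2 without 1 library). Angptl6, an angiopoietin-like protein, rose from 2.05, 1.75 and 1.66 to 4.48, 4.63 and 4.81, 2.55-fold (log2 difference 1.00, SE 0.10, adjusted p = 7.0e-05). Adm2, intermedin, rose from 3.08, 3.18 and 3.38 to 6.45, 6.74 and 7.31 (log2 difference 0.89, SE 0.12, adjusted p = 7.2e-04). Its relative Adm, adrenomedullin, another dilator of vessels, went down, from 6.49, 6.89 and 7.32 to 3.59, 3.97 and 4.72 (log2 difference -0.64, SE 0.13, adjusted p = 0.012). The call of Adm was lost without control replicate 3 or cholesterol replicate 1 or 2 of 24 h (adjusted p up to 0.059). Stc2, stanniocalcin 2, a glycoprotein that blocks cleavage of IGF-binding protein, rose from 0.173, 0.109 and 0.255 to 0.563, 0.790 and 0.551 (log2 difference 0.47, SE 0.06, adjusted p = 6.0e-04).

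In the IGF axis, 2 of 16 genes were higher and 2 lower (2 and 1 to 2 without 1 library). Igf1 fell from 1.57, 1.54 and 1.48 to 0.925, 0.826 and 0.888 (log2 difference -0.43, SE 0.03, adjusted p = 1.2e-05). Igfbp4, a binding protein that holds IGFs inactive, rose from 3.23, 3.76 and 3.41 to 5.25, 6.02 and 5.56 (log2 difference 0.57, SE 0.09, adjusted p = 0.0027). Of 45 genes of TGF-β and BMP signalling 6 were lower (3 to 4 without 1 library) and none higher. Fst, follistatin, an antagonist of activin, fell from 11.3, 13.1 and 12.4 to 7.43, 7.65 and 7.78 (log2 difference -0.62, SE 0.07, adjusted p = 1.6e-04). Of 31 Wnt genes 3 were lower (1 to 2 without 1 library) and none higher, and 24 differences were below 0. Fzd5, a Wnt receptor, fell from 21.9, 24.2 and 23.1 to 16.8, 16.3 and 14.9 (log2 difference -0.50, SE 0.06, adjusted p = 5.4e-04).

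Chemokines that were called fell. Cx3cl1, fractalkine, was at 10.1, 11.3 and 11.2 in control cells and 7.53, 8.17 and 7.60 with cholesterol (log2 difference -0.44, SE 0.06, adjusted p = 5.1e-04). Ccl9 fell from 2.32, 2.28 and 2.32 to 1.13, 1.42 and 1.32 (log2 difference -0.53, SE 0.09, adjusted p = 0.0047). Of 33 chemokines and NF-κB targets 4 were lower and 1 higher (2 to 3 and 0 to 1 without 1 library). None of 42 interferon-stimulated and antigen presentation genes was called by limma, with 1 higher and 1 lower at an unadjusted p under 0.05, 0 and 5 in the 24 h libraries alone, 0 and 1 with voom weights and 1 and 7 with array weights. Their median was -0.14, and 38 of 42 differences were below 0.

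Of macrophage markers, 8 of 28 passed the filter and 2 were called higher, Lgals3 and Cd68 (1 to 2 without 1 library). Lgals3, galectin 3, rose from 4.45, 3.95 and 4.16 to 6.77, 7.24 and 6.91 (log2 difference 0.62, SE 0.08, adjusted p = 4.5e-04). Cd68, a lysosomal glycoprotein, was at 1.35, 1.19 and 1.80 in control cells and 2.48, 2.35 and 2.26 with cholesterol, counts of 16 to 39 tags, with a call (log2 difference 0.47, SE 0.12, adjusted p = 0.038) that was lost without any 1 library of 24 h but control 24 h replicate 3 (adjusted p up to 0.16). Over the 8 tested the median was -0.04, and 5 differences were below 0. Over the 10 markers checked above, which include both, the summed level was 7.08 to 9.61 in control cells and 11.6 to 12.4 with cholesterol. The rise of this sum lay in Lgals3 and Cd68, since mean levels in control and cholesterol-loaded cells were 1.25 and 1.21 for Cd14, 1.21 and 1.03 for Lyz2 and 0.362 and 0.498 for Csf1r, while Tyrobp had no tag and Adgre1 at most 1. None of 14 genes of fibroblasts and of the SEM state, named for stem, endothelial and monocyte features, was called by limma, with 0 higher and 1 lower at an unadjusted p under 0.05, 1 and 1 in the 24 h libraries alone, 0 and 1 with voom weights and 1 and 1 with array weights.

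Redox genes moved both ways. Of 42 NRF2 targets and glutathione genes 5 were higher and 1 lower (3 and 1 without 1 library), and the median was -0.002. In the 24 h libraries alone 7 were higher and 9 lower, and 21 of the 42 differences were below 0. Srxn1, sulfiredoxin, rose from 13.9, 12.5 and 12.8 to 17.0, 17.8 and 17.6 (log2 difference 0.39, SE 0.06, adjusted p = 0.0016), and Txnrd1, thioredoxin reductase, from 4.06, 4.15 and 3.75 to 5.16, 5.06 and 4.96 (log2 difference 0.28, SE 0.05, adjusted p = 0.0063). Hmox1, heme oxygenase, was at 20.1, 20.2 and 20.2 against 27.1, 29.3 and 28.6 (log2 difference 0.47, SE 0.10, adjusted p = 0.022), and lost its call without any 1 library of 24 h (adjusted p up to 0.092). Gstt1, a glutathione transferase, fell from 4.48, 4.83 and 4.84 to 3.24, 3.37 and 3.38 (log2 difference -0.40, SE 0.05, adjusted p = 9.1e-04). All 6 genes with the symbol Gstm had differences below 0, with Gstm6 and Gstm7 called lower (33.3% against 2.96% of all genes). The core TGACNNNGC of the antioxidant response element stood in 11.7% of promoters of genes that rose, 12.4% of those that fell and 11.98% of all.

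Sugar metabolism also moved both ways, with 5 of 41 genes of glycolysis and hypoxia higher and 3 lower (3 to 4 and 1 to 2 without 1 library). Hk2, hexokinase 2, rose from 2.18, 2.14 and 2.17 to 3.58, 3.68 and 3.33 (log2 difference 0.52, SE 0.05, adjusted p = 3.5e-05). Eno2, an enolase, rose from 2.85, 2.93 and 2.98 to 4.13, 4.46 and 3.91 (log2 difference 0.40, SE 0.06, adjusted p = 0.0019), and Slc16a1, the lactate carrier MCT1, from 1.13, 0.975 and 1.16 to 1.66, 1.55 and 1.55 (log2 difference 0.31, SE 0.05, adjusted p = 0.0023). The count includes Gapdh, whose many pseudogenes can take its reads, with levels of 1.54, 1.59 and 1.49 against 2.26, 2.45 and 1.99 and a call lost without any 1 library of 24 h but cholesterol 24 h replicate 3 (adjusted p up to 0.10). Slc2a6, a lysosomal hexose transporter chosen after its values were seen, fell from 4.51, 3.94 and 4.09 to 2.76, 3.14 and 2.98 (log2 difference -0.39, SE 0.08, adjusted p = 0.012), and lost the call without control replicate 1 or cholesterol replicate 1 of 24 h (adjusted p up to 0.061). None of 62 genes of the respiratory chain was called by limma, with 1 higher and 0 lower at an unadjusted p under 0.05, 0 and 1 in the 24 h libraries alone, 0 and 0 with voom weights and 1 and 1 with array weights.

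Regulators of the circadian clock were among the genes that changed, 3 of 21 higher (3 without 1 library) and 2 lower (0 to 1). Nfil3, a repressor of the PAR bZIP factors' sites, rose from 1.04, 0.903 and 0.912 to 2.65, 2.64 and 2.42, 2.70-fold (log2 difference 0.87, SE 0.08, adjusted p = 3.2e-05). Ciart, a repressor within the clock, rose from 1.10, 1.40 and 0.984 to 1.87, 2.44 and 2.34 (log2 difference 0.57, SE 0.10, adjusted p = 0.0058), and Bhlhe40 from 6.98, 7.47 and 7.69 to 9.36, 9.53 and 9.94 (log2 difference 0.34, SE 0.06, adjusted p = 0.0041). The PAR bZIP genes Dbp and Tef, output genes of the clock, were 1.25-fold and 1.16-fold lower. The calls were lost without any 1 library of 24 h (Dbp, adjusted p up to 0.15) and without any 1 library of 24 h but control 24 h replicate 3 (Tef, adjusted p up to 0.097). All 6 libraries were taken at the same nominal time, and the hour of day was not given in the sources used here.

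No gene of the lists of mitosis and DNA replication was called. None of 61 genes of kinetochore, spindle and mitosis was called by limma, with 4 higher and 0 lower at an unadjusted p under 0.05, 0 and 0 in the 24 h libraries alone, 1 and 0 with voom weights and 6 and 1 with array weights. None of 49 genes of DNA replication was called, with 8 higher and 0 lower at an unadjusted p under 0.05, 6 and 0 in the 24 h libraries alone, 2 and 0 with voom weights and 9 and 0 with array weights. Their medians were 0.05 and 0.02. Gadd45a, a stress and growth arrest gene, rose from 17.8, 17.4 and 17.4 to 29.2, 28.4 and 28.9 (log2 difference 0.69, SE 0.06, adjusted p = 1.6e-05). Of 47 CDK inhibitors, D cyclins and p53 targets 3 rose and 4 fell (2 and 0 to 2 without 1 library).

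Of proteasome and autophagy genes, 41 each, none was called by limma. In the proteasome list 0 and 0 were higher and lower at an unadjusted p under 0.05, 1 and 0 in the 24 h libraries alone, 0 and 0 with voom weights and 1 and 0 with array weights. In the autophagy list these counts were 6 and 0, 5 and 1, 3 and 0, and 8 and 4. In ribosome biogenesis and translation 1 of 46 was called, higher (0 without 1 library), and 34 of 46 differences were above 0. Here 7 were higher and 1 lower at an unadjusted p under 0.05, 1 and 0 with voom weights and 15 and 1 with array weights. The 24 h libraries alone gave 13 and 1, where 7.71% and 9.09% of all genes were called. Lysosomal genes had 1 of 56 higher and 1 lower (0 to 1 each without 1 library). In the other lists at most 5 members were called in 1 direction.

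Outside the 9 lists of sterols, ER stress and amino acids stood 273 of the 314 genes that rose and 345 of the 374 that fell. The share inside these lists was 13.1% of the genes that rose and 7.75% of those that fell, against 2.00% of all genes tested. Some of the larger changes among them were in genes with few known partners in these lists. Crct1, a cysteine-rich protein of epidermis, rose from 6.49, 5.49 and 4.31 to 9.93, 10.3 and 10.4 (log2 difference 0.82, SE 0.15, adjusted p = 0.0090). Fibin, a secreted protein of fin bud in fish, rose from 9.36, 7.86 and 8.33 to 14.5, 14.6 and 14.5 (log2 difference 0.71, SE 0.07, adjusted p = 7.8e-05). Sertad4 fell from 8.32, 8.78 and 8.34 to 4.82, 4.96 and 4.77 (log2 difference -0.70, SE 0.06, adjusted p = 1.3e-05). Csdc2, an RNA-binding cold shock protein, fell 1.70-fold, from 6.19, 6.66 and 6.85 to 3.804, 3.98 and 3.82. Kif3a, a motor of cilia, rose from 2.83, 2.70 and 2.63 to 3.51, 3.48 and 3.75 (log2 difference 0.30, SE 0.05, adjusted p = 0.0025). Thrb, a thyroid hormone receptor, fell from 1.25, 1.37 and 1.39 to 0.819, 0.727 and 0.841 (log2 difference -0.38, SE 0.06, adjusted p = 0.0017).

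Among the 8 called genes of highest level in each direction, Wdr6 fell from 42.5, 41.2 and 41.4 to 28.9, 29.4 and 30.1 (log2 difference -0.49, SE 0.09, adjusted p = 0.0098). Mogs, the first glucosidase of N-glycans in the ER, rose from 24.0, 23.7 and 25.0 to 29.1, 32.4 and 30.8 (log2 difference 0.33, SE 0.06, adjusted p = 0.0058), and Cyb5r1, a reductase, from 20.9, 20.4 and 20.9 to 27.6, 28.6 and 28.9 (log2 difference 0.44, SE 0.07, adjusted p = 0.0032). The genes nearest the threshold were Emc8, inside at an adjusted p of 0.0497, and Ptchd4, outside at 0.0502. Median levels were 2.25 for genes that rose, 2.30 for those that fell and 1.91 over all. Median gene bodies were 18754, 24079 and 21536 bases long.

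Of the genes called at 24 h, 297 of the 314 higher and 358 of the 374 lower had a difference of the same sign at 48 h, a comparison made on other libraries, against 8735 of all 12648 genes tested. Over all genes the difference between cholesterol and control changed between 24 h and 48 h in 5.36%. Among those called at 24 h it changed in 70 of the 314 and in 51 of the 374. For those that rose, the later difference was larger in 59 and opposite in sign in 11. For those that fell, it was larger in 37, smaller in 8 and opposite in 6. Mvd, Lss and Fdps of sterol synthesis were among the 8, at -1.33, -1.21 and -1.16 at 24 h and -0.59, -0.62 and -0.43 at 48 h on the log2 scale. Insig1, the ER anchor that retains SREBPs, went from -0.42 at 24 h to 0.47 at 48 h, with a call at 24 h that was lost without any 1 library of 24 h (adjusted p up to 0.094). Slc2a6 went from -0.39 to 1.45. Tinf2, a telomere protein, and Ankle1, a nuclease, rose at 24 h (0.34 and 0.42) and were lower at 48 h (-0.43 and -0.57), and both lost the call of 24 h without control replicate 2 or 3 or cholesterol replicate 1 or 3 of 24 h (adjusted p up to 0.086 and 0.14). The 48 h libraries had 3633890 to 4968420 tags, fewer than those of 24 h.

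**Figure D4:**
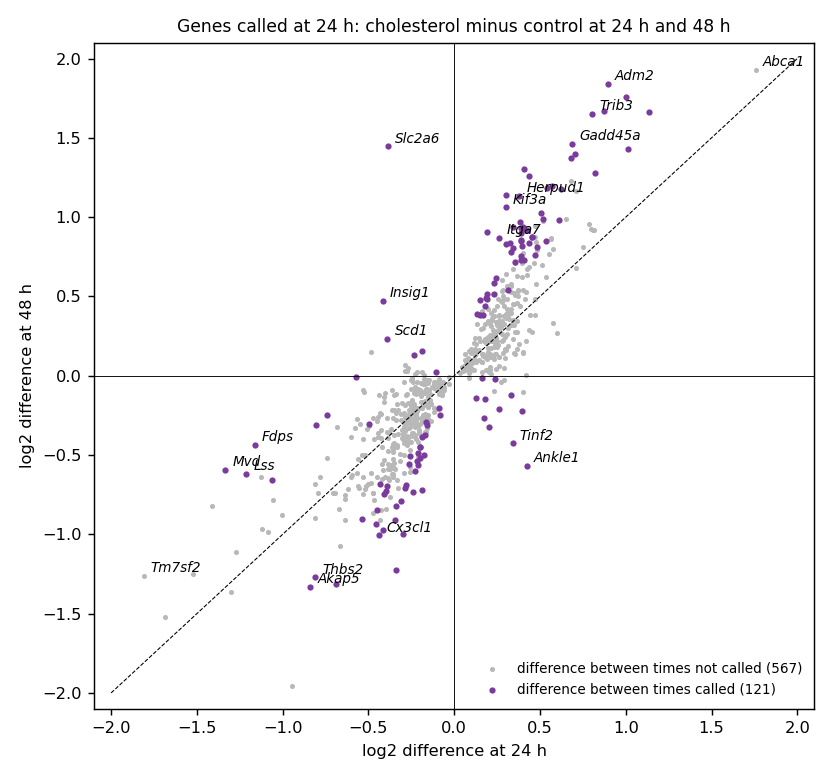
Log2 difference of cholesterol minus control at 24 h (horizontal) and 48 h (vertical) for the 688 genes called at 24 h. Purple points are the 121 genes whose difference changed between the times and grey points the others. The dashed line marks equal differences. Insig1, Scd1 and Slc2a6 lie at upper left, lower at 24 h and higher at 48 h.

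H3K27ac, a histone mark of active promoters and enhancers, was profiled in 1 library per condition, so that no test was possible. Regions called by the authors that overlapped 1 kb around the start were summed, and both conditions had a region for 257 of the 314 genes that rose, 278 of the 374 that fell and 10523 of all. The median log2 ratio of their tags, cholesterol over control, was 0.31 for genes that rose, -0.03 for those that fell and 0.14 for all. For sterol synthesis enzymes it was -0.32 in 19 genes and for ATF4 effectors 0.43 in 26. Regions also differed in length, since each library was called separately. Per kilobase of region the medians were 0.17 for genes that rose, 0.06 for those that fell, 0.11 for all, 0.04 for the synthesis enzymes and 0.17 for ATF4 effectors, so that the lower sum of the synthesis enzymes went with shorter regions (medians of 1723 against 2203 bases). At Abca1 there were 142.6 tags in 2961 bases of control and 333.2 in 2763 bases with cholesterol, 48.2 and 120.6 per kilobase. At Hmgcs1 there were 146.7 tags in 3099 bases and 116.4 in 2439, 47.3 and 47.7 per kilobase.

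**Figure D5:**
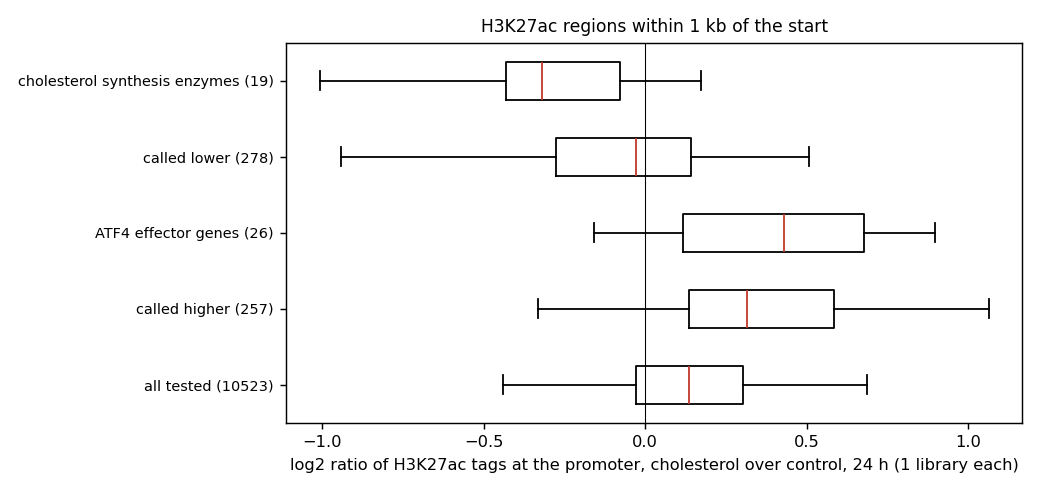
Log2 ratio of H3K27ac tags in regions within 1 kb of the gene start, cholesterol over control at 24 h, from 1 library each. Boxes are quartiles with the median in red, whiskers the 5th and 95th percentiles, and brackets give the number of genes with a region in both. The median is 0.14 over all genes, 0.31 for genes called higher and -0.32 for cholesterol synthesis enzymes.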

How the data were processed

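The authors sequenced polyadenylated RNA, aligned reads with STAR to mm10 and counted them with HOMER over whole RefSeq gene bodies, at most 1 tag per position. The deposited values are RPKM. For H3K27ac the authors deposited regions with a signal, tags per region, from 1 library per condition. One row per gene, that of highest mean RPKM, was kept among 35756 rows, the gene being the text before the first bar of the annotation. Every RPKM tested for it came back to a whole number of tags within 0.25, and tags per library were 2726790 to 7590880. Genes with over 70 estimated reads were tested, with mapped reads taken from the study's table. RPKM were divided by median-of-ratios factors (0.904 to 1.06), and log2(value + 1) was fitted with limma 3.58.1 (R 4.3.3), with 1 mean for each of 5 groups over all 14 libraries, a mean-variance trend, and Benjamini-Hochberg adjustment at 0.05. Depth limits low genes, and counts carry counting error beside the spread between libraries. Some genes are not reported here. The authors' own 48 h control replicate 1 is not analysed here. Control 0 h replicate 1, the library with the fewest tags (2726790), was kept here in the estimate of spread. The authors left it out of their comparison with in vivo cells, since it did not group with its replicates. Without it, 382 genes were called higher and 489 lower at 24 h.

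Lists (63, with 2219 symbols) and tests were chosen with earlier results of these data known. Genes are named by these rules, among genes called with a mean RPKM of at least 1. They are the 10 largest changes each way, the 15 largest outside the lists of sterols, ER stress and amino acids, up to 4 per list and direction, the 8 largest changes that were smaller or opposite at 48 h, and the 8 of highest level each way. Members of symbol groups with 3 calls were also named. Acta2, Tagln, Cnn1, Atf4, Xbp1, Hspa5, Slc2a6, Mylip, Stc2, Tspan13 and other genes outside these rules were chosen after their values were seen. The p-values measure the spread between these libraries. The fit was tested on simulated data. Alternatives were other scalings, pseudocounts, filters, rows, weights, a replicate block, only the 24 h libraries and each library left out. Because positions count once, differences of abundant genes may be compressed, which was not tested. Of 133 genes above 1 tag per exon base 3 were called (2.26%), against 5.44% of all.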

Additional observations from a re-analysis of the deposited data

Results flagged for a closer look

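Of 137 genes with values in the report, 46 were taken up here because their differences between cholesterol-loaded and control cells at 24 h and at 48 h were themselves different (limma, adjusted p under 0.05 over all genes tested). Values below are the log2 difference at 24 h minus that at 48 h. The 48 h control group had 2 libraries, and the times shared no library.

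Genes that had risen at 24 h and stood further up at 48 h have values below 0. Among genes of ER stress, ATF4 and amino acids these were -0.94 for Adm2, -0.85 for Trib3, -0.84 for Dnajb9, -0.80 for Nfil3, -0.78 for Gadd45a, -0.75 for Herpud1, -0.69 for Ddit3 and -0.69 for Ppp1r15a. Others of these groups had -0.53 for Atf3, -0.46 for Aldh1l2, -0.42 for Slc38a7, -0.42 for Chac1, -0.37 for Slc6a9, -0.33 for Slc7a11, -0.31 for Bcat1 and -0.29 for Txndc11. Outside them the values were -0.76 for Kif3a, -0.75 for Angptl6, -0.64 for Lpin3, -0.62 for Nr4a1, -0.61 for Itga7, -0.55 for Lgals3, -0.54 for Srxn1 and -0.53 for Eno2. The rest were -0.47 for Hk2, -0.46 for Bhlhe40, -0.46 for Extl1, -0.40 for Cyb5r1 and -0.36 for Snhg12.

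Genes that had fallen at 24 h and stood further down at 48 h had values of 0.57 for Cx3cl1, 0.56 for Col3a1, 0.49 for Akap5, 0.48 for Col8a1, 0.46 for Thbs2, 0.33 for Gstt1, 0.30 for Sema7a, 0.25 for Igf1 and 0.25 for Tef. Thbs2, Col3a1 and Col8a1 are genes of the matrix and Cx3cl1 is a chemokine.

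Of sterol synthesis genes only Fdps, Lss and Mvd are among those taken up here. They had fallen less at 48 h than at 24 h, with -0.73 for Fdps, -0.59 for Lss and -0.74 for Mvd. Tm7sf2, Hsd17b7 and Hmgcs1, which had larger falls at 24 h, are not among them. The sign was opposite at 48 h for Insig1, Scd1 and Slc2a6, lower at 24 h and higher later, and for Ankle1 and Tinf2, higher at 24 h and lower later. Their values were 0.99 for Ankle1, -0.89 for Insig1, -0.62 for Scd1, -1.83 for Slc2a6 and 0.77 for Tinf2. Which of culture time, control group or cholesterol carries these differences was not tested.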

How the results depend on the processing

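At 24 h 314 genes were called higher and 374 lower, and the count of genes whose effect differs between 24 h and 48 h was 678. Voom weights on recovered tags gave 575 and 636, and array weights 1496 and 1671, with 1401 that differed between the times. The libraries of 24 h alone gave 975 and 1150, and 616 and 728 with a replicate block, a fit added after seeing the data. A mean RPKM of at least 1 left 439 genes that differed between the times. Leaving out each of the 14 libraries gave 140 to 489 genes higher, 178 to 545 lower and 409 to 865 that differed between the times. The most genes higher, 489, came without cholesterol 48 h replicate 1, and the fewest, 140, without control 24 h replicate 2. Other scalings, pseudocounts and filters, the longest gene body per gene and no trend kept the calls within 1.5 times. Acta2, Tagln, Cnn1, Hspa5 and Xbp1, not called over all libraries, were called in the 24 h libraries alone, with and without the block, and all but Tagln with array weights. Of 205 genes called and named, 110 kept the call without each of the 14 libraries. The replicate block over all groups gave 262 higher, 315 lower and 531 that differed between the times. Deviations of 24 h libraries of the same number correlated at -0.05, -0.03 and 0.04 over all genes. With 3 libraries per group this cannot tell whether a number stands for a shared culture or mouse. Median shifts of all genes under another scaling were at most 0.01. At these depths genes under 70 reads were not tested, and H3K27ac has 1 library each.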
